A study of Homo sapiens with 12 samples.

Results

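The AP-1 family genes described here are FOS, FOSB, FOSL1, FOSL2, JUN, JUNB, JUND and ATF3, taken by gene symbol from the gene table of every library. These 8 genes are among 57755 gene identifiers in the tables, and all 8 were among the 15610 genes tested. RNA-seq was run on KYSE510 and TE7, established human lines labelled as esophageal squamous cell carcinoma, with KYSE510 grown in RPMI-1640 and TE7 in DMEM. Each line gave 1 library per condition: 50 nM THZ1 for 2, 4, 6 and 12 h, 200 nM THZ1 for 6 h, and DMSO. THZ1 is a covalent inhibitor of CDK7, the kinase of the general transcription factor TFIIH, and at higher doses also of CDK12 and CDK13. Both DMSO libraries carry 0 h in their titles and 12 h in their time label, so handling and culture time cannot be told apart from the drug in a change against DMSO. With 1 library per line and condition, the 2 lines served as the replicates, and levels are given per library, in KYSE510 first and TE7 after it.

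AP-1 is a dimeric transcription factor of the basic leucine zipper (bZIP) class. JUN proteins pair with one another or with FOS proteins, FOS proteins need a JUN partner, and ATF3 can pair with JUN proteins. The dimers bind the TPA response element, and pairs with ATF members also bind the cyclic AMP response element. FOS, FOSB, JUN, JUNB and ATF3 are textbook immediate-early genes, switched on within minutes of a growth factor or stress signal from preloaded or rapidly recruited RNA polymerase II, and their mRNAs are short-lived. FOSL1 and FOSL2 lack the strong activation domain of FOS and usually come up later, while JUND is expressed more steadily. In squamous epithelium AP-1 controls proliferation, migration and the terminal differentiation programme.

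The squamous identity of both lines showed in the tables: all 13 squamous epithelial markers reached 1 FPKM in each line, led by KRT5 at 1011 to 1879 FPKM in KYSE510 and 946 to 1928 FPKM in TE7. FPKM, fragment counts set against transcript length and sequencing depth, allows levels of different genes to be set side by side. Of the 6 leukocyte markers only CD68 reached 1 FPKM in either line, PTPRC did not, and none of the 3 endothelial markers did. Of 6 fibroblast markers 2 did in KYSE510 and 3 in TE7, led by COL1A1 at 6.62 to 8.66 FPKM in KYSE510 and DCN at 2.11 to 3.68 FPKM in TE7, and of 6 columnar markers CDX2 alone did, in KYSE510 (0 to 6.22 FPKM). FPKM summed to 383975 to 729515 per library, 11685 to 13982 genes reached 1 FPKM, and depth relative to the TE7 DMSO library ran from 0.833 to 1.02. The KYSE510 DMSO library stood apart: its log2 values correlated with those of the 2 h library at r = 0.879, against 0.976 for the same pair in TE7. Both 200 nM libraries stood apart as well, at r = 0.855 and 0.865 with the 50 nM library of the same hour in KYSE510 and TE7, and values without these 3 libraries are given below where they bear on a call. All 96 member values carried an OK status in the authors' tables. The upper end of the authors' 95% interval lay 2.93% to 27.0% above the value. This interval describes a single library and takes in no scatter between cultures. Of 64 pairs of neighbouring times in the same line, 7 had overlapping intervals.

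The extent listed for FOSB (ENSG00000125740; hg19, chr19:45971253-45978437) overlaps that of ERCC1, which stood at 15.1 to 67.4 FPKM. JUNB (ENSG00000171223; hg19, chr19:12902310-12904124) lies within the extent listed for HOOK2, which stood at 4.15 to 30.4 FPKM. FOSL2 (ENSG00000075426; hg19, chr2:28615315-28640179) overlaps AC104695.3 and RP11-373D23.2, neither above 2.42 FPKM, and ATF3 (ENSG00000162772; hg19, chr1:212738676-212794119) overlaps RN7SL512P, listed at 0 throughout. Whether counting used strand is not given in the sources used here, so reads in the shared stretches cannot be told apart. FOS (ENSG00000170345) is listed at chr14:75745477-75748933, FOSL1 (ENSG00000175592) at chr11:65659520-65668044, JUN (ENSG00000177606) at chr1:59246465-59249785 and JUND (ENSG00000130522) at chr19:18390563-18392432, all on hg19 and without a listed overlap.

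The promoters of 5 members are printed because these genes carry the contrast in timing: FOSB and ATF3 were highest at 2 h in both lines, JUN was highest at 2 h in TE7 only, and JUNB and JUND moved in opposite directions at 12 h. Sequences are from RefSeq on GRCh38.p14, 250 bases before to 50 bases after the start, 5′ to 3′ on the gene's own strand. Of the 8 members 7 had an entry, and FOSL1 had none. The first entry of each gene was used, so any other start of a gene, such as another ATF3 promoter, was not searched. Capitals mark TATAAA in FOSB and JUNB, TGACATCA in ATF3 and JUN, and TGACGTCA in JUND.
FOSB (chr19:45467746-45468045, plus strand): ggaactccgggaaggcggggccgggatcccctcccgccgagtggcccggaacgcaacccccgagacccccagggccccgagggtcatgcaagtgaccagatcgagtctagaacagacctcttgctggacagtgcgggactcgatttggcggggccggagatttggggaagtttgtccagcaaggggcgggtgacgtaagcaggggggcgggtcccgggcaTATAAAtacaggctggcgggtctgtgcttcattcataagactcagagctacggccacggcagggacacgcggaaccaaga
ATF3 (chr1:212565157-212565456, plus strand): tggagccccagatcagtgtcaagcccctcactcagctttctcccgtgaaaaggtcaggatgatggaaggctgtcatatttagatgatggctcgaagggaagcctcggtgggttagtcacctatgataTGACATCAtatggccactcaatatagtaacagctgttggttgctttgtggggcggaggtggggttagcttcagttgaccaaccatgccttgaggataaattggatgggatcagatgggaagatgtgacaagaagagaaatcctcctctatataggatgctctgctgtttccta
JUN (chr1:58783998-58784297, minus strand): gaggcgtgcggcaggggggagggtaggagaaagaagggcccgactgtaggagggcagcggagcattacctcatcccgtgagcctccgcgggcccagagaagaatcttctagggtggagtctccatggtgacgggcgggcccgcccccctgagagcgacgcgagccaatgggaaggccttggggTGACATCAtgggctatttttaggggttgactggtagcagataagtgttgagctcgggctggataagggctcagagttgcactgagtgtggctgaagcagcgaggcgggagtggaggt
JUNB (chr19:12791236-12791535, plus strand): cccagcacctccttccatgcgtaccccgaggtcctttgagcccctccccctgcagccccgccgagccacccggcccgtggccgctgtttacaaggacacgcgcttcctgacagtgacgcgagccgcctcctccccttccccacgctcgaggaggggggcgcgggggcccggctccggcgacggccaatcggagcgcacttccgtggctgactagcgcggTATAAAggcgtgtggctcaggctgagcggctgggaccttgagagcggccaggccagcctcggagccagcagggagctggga
JUND (chr19:18281573-18281872, minus strand): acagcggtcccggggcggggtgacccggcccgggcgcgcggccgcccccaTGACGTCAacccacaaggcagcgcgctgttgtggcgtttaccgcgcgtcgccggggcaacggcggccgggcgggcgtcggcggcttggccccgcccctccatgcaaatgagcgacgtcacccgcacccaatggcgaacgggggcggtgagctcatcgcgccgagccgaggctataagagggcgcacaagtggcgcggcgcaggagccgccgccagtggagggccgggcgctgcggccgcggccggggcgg
TATAAA, the TATA box, was found 33, 30 and 31 bases before the start of FOS, FOSB and JUNB, and is held by 11.5% of the 35116 promoters in the same table. TGACATCA, a variant of the TPA response element known from the JUN promoter, began 67 bases before the start in JUN and 123 bases before it in ATF3, and is held by 2.61% of promoters; it was searched for after these sequences had been seen. The cyclic AMP response element TGACGTCA was found in JUND only, 200 bases before the start (1.85% of promoters). Its shorter form TGACG was present in the window of every member with an entry except the 1 ATF3 window searched (24.6%). The consensus TPA response element TGACTCA was found in FOSL2 only, 5 bases after the start (4.95%). CCAAT was present in JUN, JUNB, JUND and ATF3 (34.6%), GGGCGG in all but JUNB (45.0%), and the CArG box of serum response factor in none of the 7 windows (1.29%). Sites more than 250 bases before the start were not searched, so a gene without a match can hold the element further upstream. Both strands were searched, and the longer elements contain TGACG where their letters do. These are matches of letters in a window and say nothing of binding.

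The first comparison asks which AP-1 transcripts responded within hours of 50 nM THZ1. FOSL1, which encodes FRA-1, had the largest mean change at 2 h. In TE7 its 2 h level was 7.65-fold DMSO, close to the 7.08-fold of ATF3. FOSB and ATF3 were also highest at 2 h in both lines, with changes that did not pass over all genes. FOS and FOSL2 were highest in DMSO in both lines, and JUNB was highest at 12 h in both lines. Set by the hour of the highest value among DMSO, 2, 4, 6 and 12 h, 4 members (FOSB, FOSL1, JUND and ATF3) peaked at 2 h in both lines. A level is a share of the RNA of a whole culture, so fewer cells with a transcript and less of it per cell cannot be told apart. A rise is likewise a rise in share, and the levels do not give the amount of RNA per cell.

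**Figure D1:**
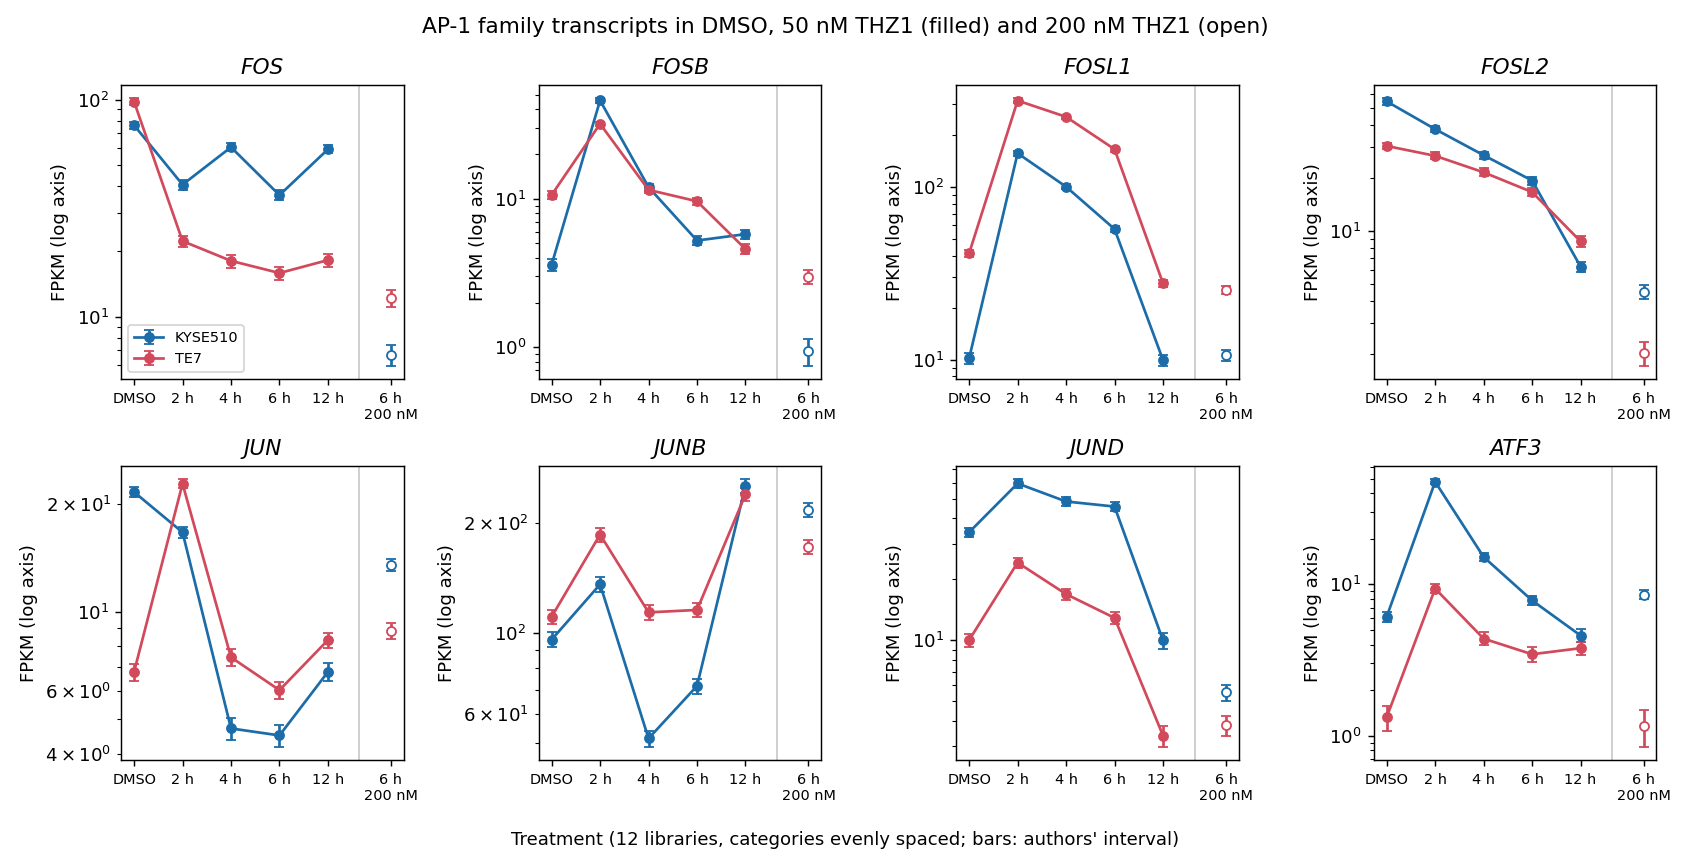
Level of each AP-1 family gene in FPKM (log axis, own range in each panel) in DMSO, after 2, 4, 6 and 12 h of 50 nM THZ1 (filled points, lines join the libraries of a line) and after 6 h of 200 nM THZ1 (open points); blue is KYSE510 and red is TE7, the times are evenly spaced categories, and bars are the authors' 95% interval of a single library. FOSB, FOSL1, JUND and ATF3 are highest at 2 h in both lines, while JUNB reaches 252 and 239 FPKM at 12 h.

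Among the FOS subunits, FOSL1 in KYSE510 stood at 10.2 FPKM in DMSO and at 157, 100.2, 57.0 and 9.95 FPKM after 2, 4, 6 and 12 h. In TE7 the FOSL1 series was 41.3, 316, 254, 165 and 27.7 FPKM over the same times. The DMSO and 12 h libraries were the low ones in each line, and every library from 2 to 6 h lay above both of them. The 2 h level was 15.4-fold that of DMSO in KYSE510 and 7.65-fold in TE7. On the log2(FPKM + 1) scale used for all changes, FOSL1 rose by 3.36 ± 0.23 at 2 h (limma standard error, adjusted p = 0.00912), by 2.89 ± 0.23 at 4 h (adjusted p = 0.0289) and by 2.17 ± 0.23 at 6 h (adjusted p = 0.0156). FOSL1 was 1 of the 2 genes that rose at 2 h, where 0.0128% of all genes tested passed and 0 fell in limma (1683 genes, 5 of them members, had an unadjusted p under 0.05). In that comparison it ranked first by p among all genes, and likewise at 4 h, where 0.0769% passed (0.0256% higher, 0.0512% lower). At 6 h 4.71% of all genes passed, 0.692% upward and 4.02% downward, and FOSL1 was the single member among them.

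The FOSL1 calls at 2, 4 and 6 h did not hold under every alternative. At 2 and 4 h the call ended in 10 of 23 alternatives, namely with no cell-line block, without the KYSE510 DMSO library and without any 1 of the 8 libraries at 50 nM, while the change stayed between 3.05 and 3.68 at 2 h and between 2.57 and 3.20 at 4 h; over all 23, adjusted p ran from 0.000731 to 1.0 at 2 h and from 0.00102 to 0.698 at 4 h. At 6 h it ended in 7, with no block and without any 1 of the 2, 4 or 6 h libraries, with a change of 1.86 to 2.49 and adjusted p of 0.00242 to 0.384.

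FOSB, an immediate-early partner of JUN proteins, stood at 3.60, 45.8, 12.0, 5.23 and 5.78 FPKM in KYSE510 from DMSO through 2, 4, 6 and 12 h. The TE7 values of FOSB were 10.6, 31.9, 11.5, 9.61 and 4.58 FPKM. The 2 h library was the highest of its line in both, and by 6 h FOSB was above its DMSO level in KYSE510 and below it in TE7. The change at 2 h was 2.43 ± 0.47, 3.35 in KYSE510 and 1.50 in TE7, with an adjusted p of 0.236 that did not pass. Without the TE7 DMSO library that change passed, with adjusted p = 0.0182, but that value rests on the KYSE510 DMSO library, which stood apart, and 915 genes higher and 761 lower then passed, against 2 and 0 over all 12 libraries. Over its 23 alternatives adjusted p reached 1.0.

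FOS, the founding member of the family, behaved differently from FOSB. KYSE510 had 76.1, 40.5, 60.3, 36.3 and 59.0 FPKM of FOS from DMSO to 12 h, with no steady order after 2 h. TE7 had 97.8, 22.3, 18.1, 15.9 and 18.2 FPKM, all 4 treated libraries lying far below DMSO, and the intervals of 6 h overlapped those of 4 h and 12 h. The changes of FOS against DMSO ran from -1.35 ± 0.61 at 4 h to -1.80 ± 0.61 at 6 h, and none passed (adjusted p = 0.329 and 0.131). Without the KYSE510 DMSO library and both 200 nM libraries FOS fell at all 4 times, with changes of -2.33 at 2 h, -2.19 at 4 h, -2.64 at 6 h and -2.20 at 12 h. In that fit TE7 gives the only DMSO library, and both lines enter through the treated libraries and the line block; of all genes tested, 1.86%, 10.8%, 24.9% and 53.1% passed in it at 2, 4, 6 and 12 h.

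FOSL2, which encodes FRA-2, was lower at each later time in both lines. In KYSE510 it stood at 54.8, 38.1, 27.1, 19.4 and 6.28 FPKM from DMSO to 12 h. For TE7 the FOSL2 values were 30.5, 26.8, 21.6, 16.7 and 8.74 FPKM. No pair of neighbouring times had overlapping intervals. The change was -0.35 ± 0.31 at 2 h, -0.74 ± 0.31 at 4 h and -1.14 ± 0.31 at 6 h, and none of the 3 passed (adjusted p = 0.681, 0.311 and 0.0808), although the change at 6 h passed without either 200 nM library and without the TE7 DMSO library. At 12 h FOSL2 fell by 2.32 ± 0.31 (adjusted p = 0.00243), and that call held in all 23 alternatives, with a change of -2.80 to -1.76 and adjusted p of 0.00156 to 0.0151.

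Among the JUN subunits, JUN itself differed between the lines. KYSE510 had 21.6, 16.7, 4.71, 4.50 and 6.78 FPKM of JUN from DMSO to 12 h, and TE7 had 6.78, 22.8, 7.45, 6.03 and 8.33 FPKM. JUN at 2 h was thus the highest value of its series in TE7 and below DMSO in KYSE510, with changes of 1.61 and -0.36. The mean change of 0.63 ± 0.49 did not pass (adjusted p = 0.628), and 4, 6 and 12 h did not pass either (-0.93, -1.09 and -0.64, adjusted p = 0.393, 0.238 and 0.369). From 2 h to 4 h both lines showed the same step: the 4 h level was 28.2% of the 2 h level in KYSE510 and 32.6% in TE7. Without the KYSE510 DMSO library and both 200 nM libraries the 2 h change of JUN was 1.60 and passed, and the changes at 4 h and 12 h turned to 0.038 and 0.33, while without the TE7 DMSO library the falls at 4, 6 and 12 h passed, at -1.81, -1.97 and -1.51, where the KYSE510 library is the only DMSO library and 12.6%, 16.2% and 31.6% of all genes tested passed.

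JUNB, which is highly expressed in these lines, was the most abundant member in both DMSO libraries. Its KYSE510 series was 95.9, 136, 51.5, 71.6 and 252 FPKM from DMSO to 12 h. The TE7 series was 111, 186, 114, 116 and 239 FPKM, with overlapping intervals at 4 and 6 h. In each line there were thus 2 high points, at 2 h and at 12 h, and the 12 h library was the higher of them. The changes at 2, 4 and 6 h were 0.62 ± 0.33, -0.42 ± 0.33 and -0.18 ± 0.33, and none passed (adjusted p = 0.514, 0.55 and 0.795). The sign at 6 h was the opposite under median-of-ratios scaling (0.026). At 12 h JUNB rose by 1.24 ± 0.33 (adjusted p = 0.0265), 2.63-fold in KYSE510 and 2.16-fold in TE7.

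JUND, the JUN subunit with the steadiest expression in most cells, stood at 34.2, 59.5, 48.5, 45.8 and 10.0 FPKM in KYSE510 from DMSO to 12 h. TE7 gave 10.0, 24.2, 16.9, 12.9 and 3.38 FPKM. Both lines were above DMSO from 2 to 6 h and below it at 12 h. The early changes of 0.99 ± 0.31, 0.60 ± 0.31 and 0.37 ± 0.31 at 2, 4 and 6 h did not pass (adjusted p = 0.359, 0.389 and 0.513); the change at 2 h passed, at 1.10 (adjusted p = 0.0488), without the KYSE510 DMSO library and both 200 nM libraries. At 12 h JUND fell by 1.50 ± 0.31 (adjusted p = 0.0106).

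ATF3, a stress-induced member of the ATF group, stood at 6.11, 47.7, 15.2, 7.83 and 4.59 FPKM in KYSE510 from DMSO to 12 h. In TE7 the ATF3 values were lower throughout, at 1.32, 9.37, 4.38, 3.45 and 3.78 FPKM, with overlapping intervals at 6 and 12 h. The 2 h library was the highest of each line, 7.80-fold DMSO in KYSE510 and 7.08-fold in TE7. The change of 2.47 ± 0.46 at 2 h did not pass (adjusted p = 0.236), and passed in 0 of 23 alternatives, with adjusted p from 0.0588 to 1.0. At 12 h ATF3 was below DMSO in KYSE510 and 2.86-fold DMSO in TE7, with a mean change of 0.35 ± 0.46 (adjusted p = 0.612).

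**Figure D2:**
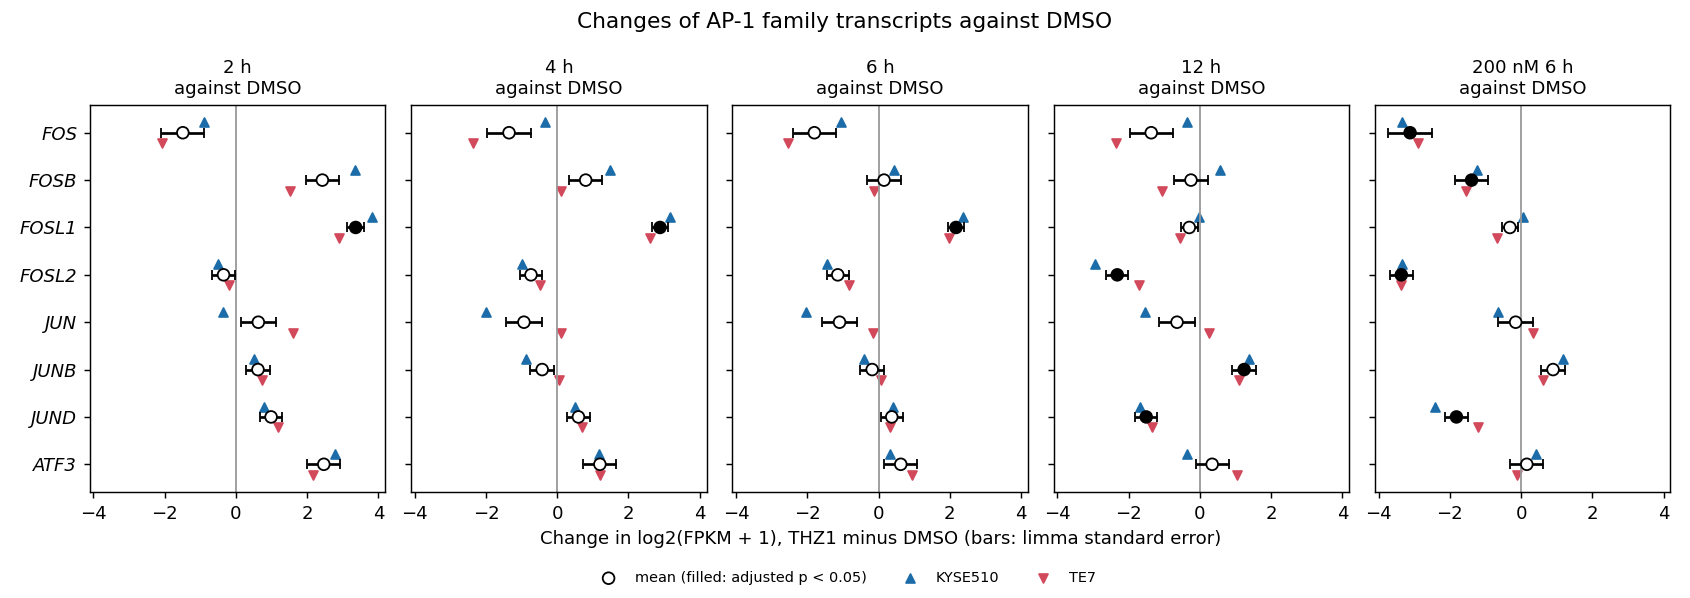
Change of each AP-1 family gene on the log2(FPKM + 1) scale, THZ1 minus DMSO, in 5 comparisons; circles are the mean of both lines with the limma standard error, filled where adjusted p is below 0.05, and triangles are KYSE510 (blue, pointing up) and TE7 (red, pointing down). FOSL1 is the single filled member at 2, 4 and 6 h, at 3.36, 2.89 and 2.17; at 12 h FOSL2 and JUND lie to the left and JUNB to the right. Points without filling near 0 can change side with scaling, as FOSB and FOSL1 do at 12 h and FOSL1 and JUN do at 200 nM.

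At 12 h the 3 members that passed against DMSO, 1 upward (JUNB) and 2 downward (FOSL2 and JUND), stood against 28.4% of all genes tested (3.27% higher and 25.2% lower). The median change was -0.47 over the 8 members and -0.42 over all genes, and the members' median turned to 0.082 under median-of-ratios scaling. Under median-of-ratios scaling the median of all genes was 0.035, and the split of calls over all genes turned from 510 higher and 3929 lower to 1759 higher and 1684 lower. With that scaling JUNB was at 1.84 (adjusted p = 0.00958), FOSL2 at -1.76 (adjusted p = 0.0141) and JUND at -0.97, past the threshold no longer (adjusted p = 0.0573); the mean changes of FOSB and FOSL1, -0.25 and -0.30 as deposited, turned to 0.27 and 0.28. The JUNB call also ended with no filter on low values, with no block and without either DMSO or either 12 h library (change 0.99 to 1.84 and adjusted p 0.00958 to 0.157 over 23 alternatives). The JUND call ended with no block, without the KYSE510 DMSO library and without either 12 h library (change -1.72 to -0.97 and adjusted p 0.00158 to 0.324). Without the KYSE510 DMSO library and both 200 nM libraries all 3 calls stood and FOS and FOSL1 passed too, at -2.20 and -0.60 (adjusted p = 0.0015 and 0.0256), while 53.1% of all genes tested passed.

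The decay after 2 h was compared between 12 h and 2 h of the same dose, so the change itself uses no DMSO level, while its error comes from the fit over all 12 libraries. FOSL1 fell by 3.66 ± 0.23 (adjusted p = 0.0016), to 6.36% of its 2 h level in KYSE510 and 8.76% in TE7. FOSB fell by 2.67 ± 0.47 (adjusted p = 0.00821), to 12.6% and 14.4%. JUND fell by 2.49 ± 0.31 (adjusted p = 0.00333), to 16.8% and 14.0% of its 2 h level. The remaining calls were ATF3, which fell by 2.12 ± 0.46 (adjusted p = 0.0172), to 9.63% in KYSE510 and 40.4% in TE7, and FOSL2, which fell by 1.97 ± 0.31 (adjusted p = 0.00623), to 16.5% and 32.6%. So 5 of 8 members fell, with 21.9% of all genes tested past the threshold (1.88% higher and 20.0% lower), and the members' median change was -2.04 against -0.43 over all genes. JUN at -1.27 ± 0.49 (adjusted p = 0.107), JUNB at 0.62 ± 0.33 (adjusted p = 0.219) and FOS at 0.13 ± 0.61 (adjusted p = 0.91) did not pass, and the value of FOS turned to -0.11 when the FPKM sums were made equal. With the same change of -1.27 JUN passed without the KYSE510 DMSO library (adjusted p = 0.0196), without the TE7 DMSO library (adjusted p = 0.0192) and without the KYSE510 DMSO and both 200 nM libraries (adjusted p = 0.000482), where 29.9%, 29.9% and 56.4% of all genes tested passed.

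The calls of the decay differed in how far they held. FOSL1 and JUND lost theirs with no block only (adjusted p = 0.0519 and 0.131), FOSB without the KYSE510 2 h or the TE7 12 h library, and FOSL2 without either 2 h library; over all alternatives adjusted p reached 0.0756 for FOSB and 0.0637 for FOSL2. ATF3 lost its call in 7 of 23, with no filter, with no block, under upper-quartile and median-of-ratios scaling, and without either 2 h library or the KYSE510 12 h library (change -2.86 to -1.37, adjusted p 0.00727 to 0.27). Scaling by median of ratios moved the split over all genes from 293 higher and 3126 lower to 1286 higher and 1028 lower, and JUNB then passed at 1.24 (adjusted p = 0.0448).

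The course between 2 and 12 h separated the members further. At 4 h FOSB was at 26.1% of its 2 h level in KYSE510 and 36.0% in TE7, ATF3 at 31.8% and 46.7%, and JUN at 28.2% and 32.6%. FOSL1 still held 64.0% and 80.5% at 4 h, and JUND 81.5% and 69.9%. FOSB, ATF3 and JUN were thus the 3 members furthest below their 2 h level at 4 h in both lines. At 6 h FOSL1 held 36.4% in KYSE510 and 52.3% in TE7 and JUND 76.9% and 53.3%, whereas FOSB was at 11.4% and 30.1%. JUNB was at 38.0% and 61.3% of its 2 h level at 4 h, and at 186% and 129% at 12 h.

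**Figure D3:**
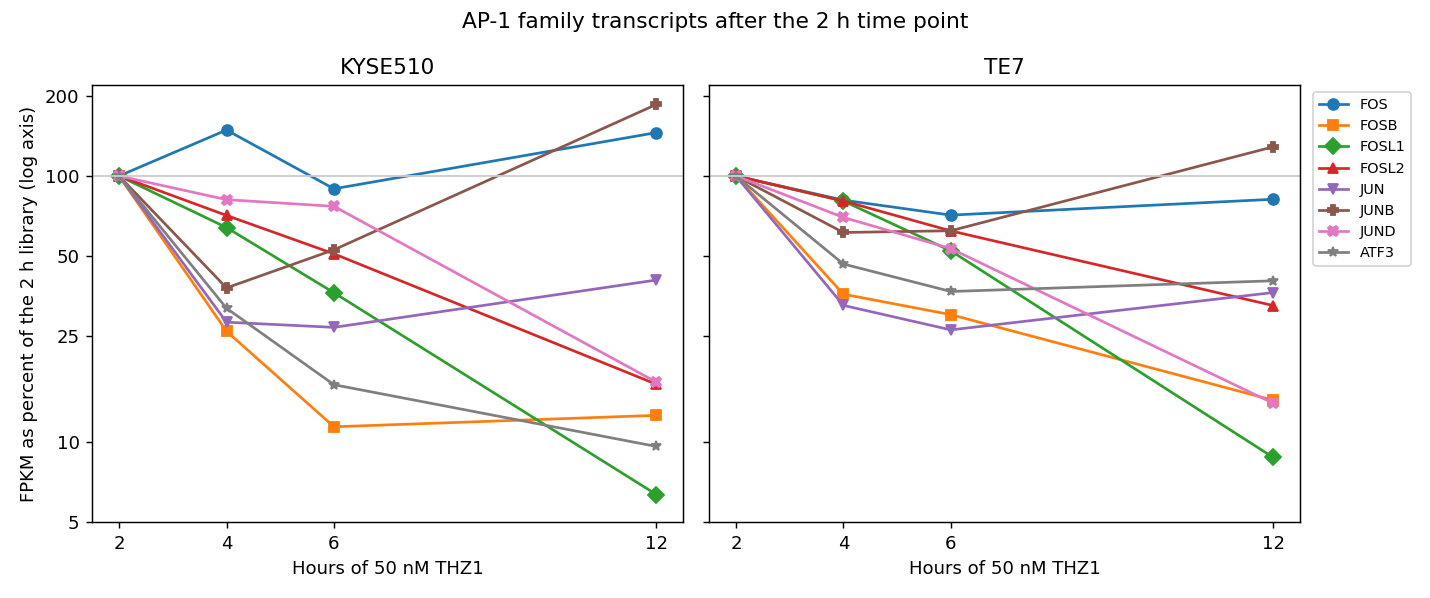
FPKM of each AP-1 family gene as a percent of the 2 h library of the same line (log axis), at 2, 4, 6 and 12 h of 50 nM THZ1, KYSE510 on the left and TE7 on the right. FOSB, JUN and ATF3 lie at 26.1% to 46.7% at 4 h in both lines, FOSL1 reaches 6.36% and 8.76% at 12 h, and JUNB ends above its 2 h level.

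Single steps between neighbouring times gave few calls. From 2 h to 4 h 0% of all genes passed in limma (294 had an unadjusted p under 0.05), and 4 members were among those 294: FOSB at -1.63 ± 0.47, JUN at -1.56 ± 0.49, JUNB at -1.04 ± 0.33 and ATF3 at -1.27 ± 0.46. From 4 h to 6 h 0% passed again (155 had an unadjusted p under 0.05), with FOSL1 at -0.71 ± 0.23 the member among them. Between 12 h and 6 h 0.922% passed (0.128% higher and 0.794% lower), and FOSL1 fell by 2.47 ± 0.23 (adjusted p = 0.0271) and JUND by 1.88 ± 0.31 (adjusted p = 0.04998). JUNB at 1.42 ± 0.33 (adjusted p = 0.0791) and FOSL2 at -1.17 ± 0.31 (adjusted p = 0.103) did not pass. JUND was at 76.9% and 53.3% of its 2 h level at 6 h and at 16.8% and 14.0% at 12 h, so in TE7 much of its fall came before 6 h. Its call between 12 h and 6 h lay at the threshold, and single steps were not recomputed under the alternatives.

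The dose comparison sets 200 nM against 50 nM at the same hour. FOSL1 had 10.6 and 25.3 FPKM at 200 nM, against 57.0 and 165 FPKM at 50 nM in KYSE510 and TE7. FOSL2 had 4.51 and 2.02 FPKM at 200 nM, against 19.4 and 16.7 FPKM at 50 nM. JUND had 5.53 and 3.80 FPKM at 200 nM, against 45.8 and 12.9 FPKM at 50 nM. All 3 genes fell, with changes of -2.49 ± 0.23 for FOSL1 (adjusted p = 0.000745) and -2.22 ± 0.31 for FOSL2 (adjusted p = 0.00279). For JUND the change was -2.19 ± 0.31 (adjusted p = 0.00288). FOSB, at 0.945 and 2.99 FPKM against 5.23 and 9.61 FPKM, fell by 1.55 ± 0.47 (adjusted p = 0.0458). JUNB was the exception, at 217 and 171 FPKM at 200 nM against 71.6 and 116 FPKM at 50 nM, and rose by 1.07 ± 0.33 (adjusted p = 0.0488).

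The remaining 3 members did not pass between the doses. JUN stood at 13.5 and 8.83 FPKM at 200 nM and at 4.50 and 6.03 FPKM at 50 nM, higher at 200 nM in both lines (0.94 ± 0.49, adjusted p = 0.198), and the same change passed without the KYSE510 or the TE7 DMSO library (adjusted p = 0.0479 and 0.0469). ATF3 stood at 8.56 and 1.16 FPKM at 200 nM and at 7.83 and 3.45 FPKM at 50 nM, with overlapping intervals in KYSE510, and its mean change of -0.46 ± 0.46 (adjusted p = 0.484) was 0.059 under median-of-ratios and 0.13 under upper-quartile scaling. FOS stood at 6.67 and 12.2 FPKM at 200 nM and at 36.3 and 15.9 FPKM at 50 nM (-1.32 ± 0.61, adjusted p = 0.151), and passed without the TE7 200 nM library, at -2.20 (adjusted p = 0.0301). Over all genes 24.8% passed between the doses (2.94% higher and 21.9% lower), with a median change of -0.46, against -1.43 over the members. Under median-of-ratios scaling the split turned from 459 higher and 3412 lower to 1567 higher and 1325 lower. The call of FOSL2 held in all 22 alternatives and those of FOSL1 and JUND in all but that with no block (adjusted p = 0.127 and 0.167), while FOSB and JUNB each lost theirs in 13 of 22, with adjusted p up to 0.226 and 0.277; for FOSB these included all 3 other scalings, for JUNB none of them.

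Against DMSO, 4 members fell at 200 nM, and 38.5% of all genes tested passed in that comparison (3.22% higher and 35.3% lower). FOS had 6.67 and 12.2 FPKM at 200 nM, against 76.1 and 97.8 FPKM in DMSO, and fell by 3.12 ± 0.61 (adjusted p = 0.00584). FOSL2 had 4.51 and 2.02 FPKM, against 54.8 and 30.5 FPKM in DMSO, and fell by 3.36 ± 0.31 (adjusted p = 0.000465). JUND, at 5.53 and 3.80 FPKM against 34.2 and 10.0 FPKM in DMSO, fell by 1.81 ± 0.31 (adjusted p = 0.00358), and FOSB, at 0.945 and 2.99 FPKM against 3.60 and 10.6 FPKM, by 1.39 ± 0.47 (adjusted p = 0.0472). The doses share their DMSO libraries with the time course. JUNB, at 217 and 171 FPKM against 95.9 and 111 FPKM in DMSO, was 0.90 ± 0.33 higher and did not pass (adjusted p = 0.0642), but did under each of 3 other scalings (1.27 to 1.77). FOSL1 (-0.31 ± 0.23, adjusted p = 0.307), JUN (-0.15 ± 0.49, adjusted p = 0.828) and ATF3 (0.16 ± 0.46, adjusted p = 0.808) did not pass, and FOSL1 and JUN turned positive under all 3 other scalings (up to 0.52 and 0.65).

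The median change at 200 nM against DMSO was -0.85 over the members and -0.65 over all genes, and under median-of-ratios scaling the split over all genes turned from 503 higher and 5503 lower to 2080 higher and 1889 lower. FOS and FOSL2 kept their calls in all 22 alternatives, with changes of -4.00 to -2.23 and of -3.71 to -2.50. JUND lost its call with no block (adjusted p = 0.189). FOSB lost its call in 14 of 22, among them the 3 other scalings (change -1.96 to -0.75, adjusted p 0.0264 to 0.251).

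The make-up of each family was read within a library, where library scaling has no part. FOSL1 made up 7.04% of the summed FPKM of the 4 FOS genes in KYSE510 DMSO and 55.7%, 50.2%, 48.3% and 12.3% after 2, 4, 6 and 12 h. In TE7 the FOSL1 share was 22.9% in DMSO and 79.6%, 83.3%, 79.7% and 46.7% over the same hours. FOS itself, more than any other FOS gene in DMSO at 52.6% and 54.3%, was at 14.4% in KYSE510 and 5.61% in TE7 at 2 h. The lead thus passed from FOS to FOSL1 by 2 h in both lines, and at 12 h FOS led again in KYSE510, at 72.8%, while FOSL1 still led in TE7, where FOS was at 30.7%. The family's summed FPKM was 145, 281, 199.5, 118 and 81.0 in KYSE510 and 180.2, 397, 305, 207 and 59.2 in TE7 from DMSO to 12 h.

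In the JUN family JUNB led in every library, although its interval overlapped that of JUND in KYSE510 at 4 h. Its share was 63.2%, 64.0%, 49.2%, 58.8% and 93.8% in KYSE510 from DMSO to 12 h, and 86.8%, 79.8%, 82.4%, 85.9% and 95.3% in TE7. JUND was the other large part in KYSE510, at 46.3% at 4 h and 3.72% at 12 h. At 200 nM JUNB made up 91.9% in KYSE510 and 93.1% in TE7, and FOSL1 made up 46.7% and 59.5% of the FOS genes. At 12 h and at 200 nM, JUNB thus made up nearly all of the JUN family FPKM in both lines.

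**Figure D4:**
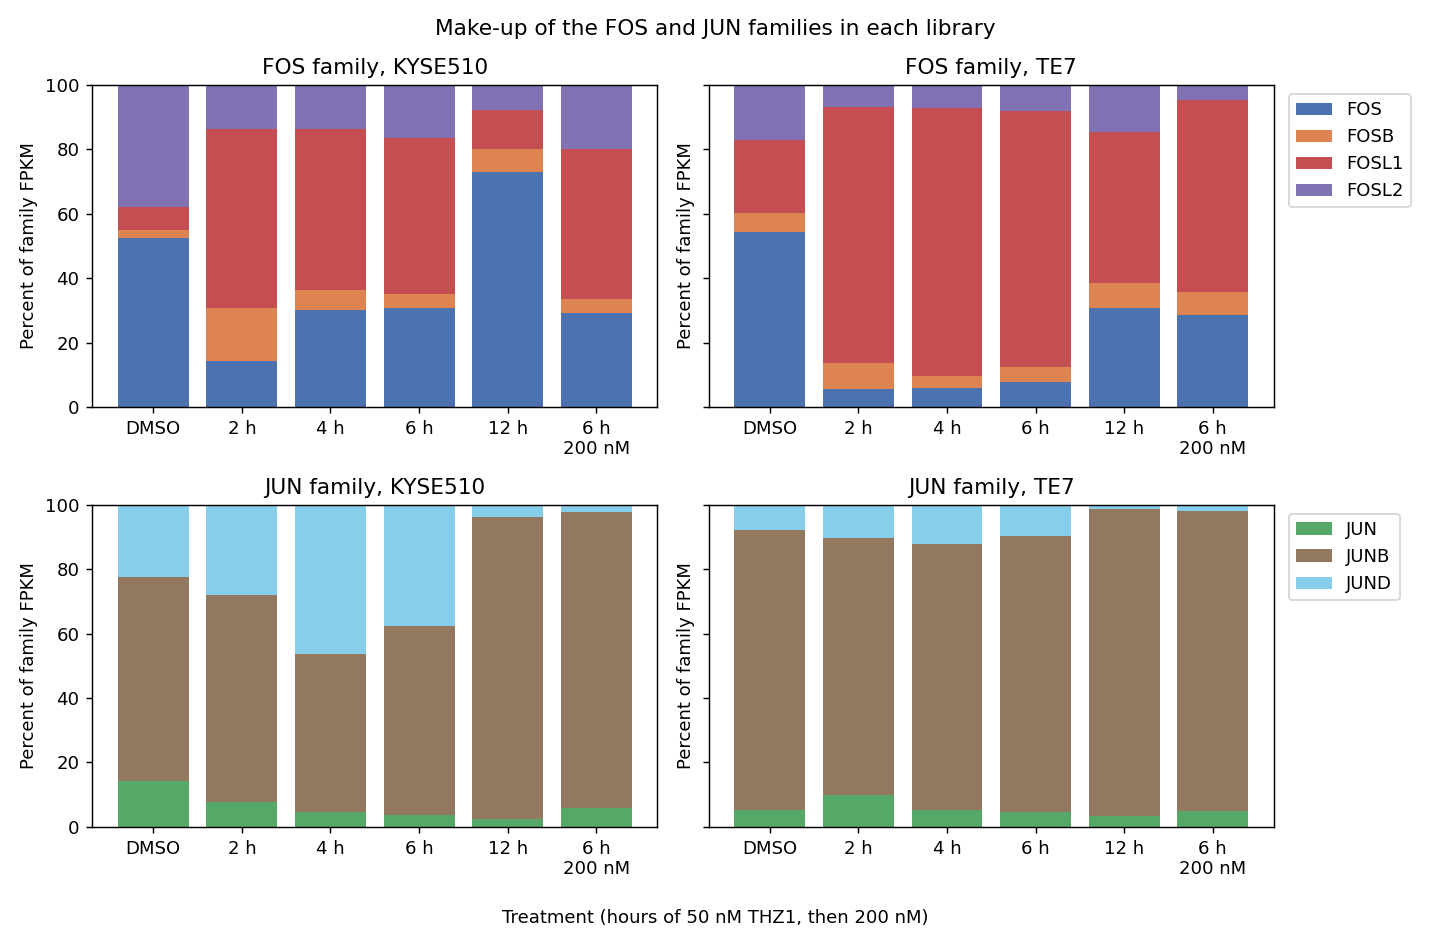
Share of each gene in the summed FPKM of its family (percent), the FOS family above and the JUN family below, KYSE510 left and TE7 right, in DMSO, after 2, 4, 6 and 12 h of 50 nM THZ1 and after 6 h of 200 nM THZ1, 1 library per bar. The FOSL1 part is larger at 2 h than in DMSO in both lines (55.7% against 7.04% in KYSE510, 79.6% against 22.9% in TE7), and JUNB fills 93.8% and 95.3% of the JUN family at 12 h.

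The order of the members within a library moved accordingly. JUNB and FOS were first and second in DMSO in both lines, and FOSL1 was first at 2 h and 4 h in both. The lowest member was FOSB in KYSE510 DMSO and ATF3 in TE7 DMSO. Over all 6 conditions 3 members differed between KYSE510 and TE7, where 46.3% of all genes did (17.5% higher and 28.9% lower in KYSE510): FOSL1 was lower in KYSE510 by -1.39 ± 0.13 (adjusted p = 0.000353, lower in 6 of 6 conditions), while JUND (1.32 ± 0.18, adjusted p = 0.00132) and ATF3 (1.47 ± 0.27, adjusted p = 0.00393) were higher in KYSE510 in 6 of 6. The lines also differ in their culture medium, which cannot be told apart from the line.

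Genes whose course was most like that of a member were named by the smaller Pearson r of the 2 lines, over 6 libraries per line and 8843 genes, as a description of libraries that share treatment and depth. NR4A1, an immediate-early nuclear receptor gene, was closest to both FOSB (0.955) and ATF3 (0.852). MESDC1 (0.941) and the clock gene PER2 (0.932) followed for FOSB, and PDP1 (0.826) and FEM1C (0.811) for ATF3. FOSL1 was most like MMS22L (0.967), PPRC1 (0.958) and ZBED2 (0.953). FOSL2 was closest to CFL2 (0.995), TMEM60 (0.995) and POLR2D (0.993), and JUND to REST (0.983), NSRP1 (0.983) and TUBGCP5 (0.980). FOS was nearest to SLC50A1 (0.956), MAPK3 (0.955) and SNX3 (0.954). The closest to JUN was ZDHHC17 (0.736), and the closest to JUNB was PTBP2 (0.832).

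Other bZIP genes that can pair with or compete with AP-1 subunits followed different courses. Of 11 tested from a list of 14, 0 passed in limma at 2 h and 4 h against DMSO (4 and 3 had an unadjusted p under 0.05). Later 1 rose and 2 fell at 6 h, 2 rose and 4 fell at 12 h, and 1 rose and 5 fell at 200 nM. Of all genes tested, 0.0128% and 0.0769% passed at 2 and 4 h. At 6 h, 12 h and 200 nM 0.692%, 3.27% and 3.22% of all genes rose and 4.02%, 25.2% and 35.3% fell. MAFK, a small MAF protein without an activation domain, had 42.3 and 40.7 FPKM at 12 h, against 10.8 and 12.4 FPKM in DMSO, and rose by 1.76 ± 0.20 (adjusted p = 0.00164). MAFG, another small MAF, rose by 1.09 ± 0.24 (adjusted p = 0.0138). CREB1, the cyclic AMP response element binding protein, had 2.99 and 4.36 FPKM at 12 h, against 25.7 and 16.7 FPKM in DMSO, and fell by 2.23 ± 0.27 (adjusted p = 0.00184). JDP2, a repressor that pairs with JUN proteins, fell by 1.14 ± 0.31 at 12 h (adjusted p = 0.0281) and fell by 2.72 ± 0.31 at 200 nM (adjusted p = 0.000772). From 2 h to 12 h MAFF, a small MAF gene, had 1.73 and 4.48 FPKM at 12 h, against 28.0 and 21.6 FPKM at 2 h, and fell by 2.73 ± 0.76 (adjusted p = 0.038). The list's median change at 12 h was -0.51, beside -0.42 over all genes. Under median-of-ratios scaling, tried for the lists after these values had been seen, 1 rose and 0 fell at 6 h, 2 rose and 1 fell at 12 h with a median of -0.051, and 2 rose and 2 fell at 200 nM, and JDP2 at 12 h and MAFF did not pass (adjusted p = 0.266 and 0.108).

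Of 19 tested kinases and ternary complex factors upstream of AP-1, from a list of 20, 0 passed in limma at 2, 4 and 6 h (2, 3 and 3 had an unadjusted p under 0.05) and 0 rose later. At 12 h 5 fell against DMSO, at 200 nM 8 fell, between 12 h and 2 h 4 fell and between the doses 6 fell. The shares of all genes tested that fell were 25.2%, 35.3%, 20.0% and 21.9% in the same order. At 2, 4 and 6 h 0.0128%, 0.0769% and 4.71% of all genes passed in either direction. MAP2K4, a kinase of the JNK branch, had 1.83 and 2.13 FPKM at 200 nM, against 13.6 and 12.8 FPKM in DMSO, and fell by 2.25 ± 0.23 (adjusted p = 0.000553). MAP2K7, another kinase of the JNK branch, fell by 1.78 ± 0.25 between 12 h and 2 h (adjusted p = 0.00426). SRF, serum response factor, had 9.26 and 5.99 FPKM at 200 nM, against 30.9 and 23.5 FPKM at 50 nM, and fell by 1.72 ± 0.21 (adjusted p = 0.00169). The list's median was -0.70 at 12 h and -0.71 at 200 nM, beside -0.42 and -0.65 over all genes, and with median-of-ratios scaling -0.12 and 0.050. In that scaling, with 20 tested, 1 rose at 6 h, 1 rose and 0 fell at 12 h, 1 rose and 2 fell at 200 nM, 1 fell between 12 h and 2 h and 3 fell between the doses, with MAP2K4, MAP2K7 and SRF still past the threshold (adjusted p = 0.00591, 0.0141 and 0.00948).

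Known AP-1 target genes of epithelial cells formed a list of 30, of which 26 were tested. In limma 0 of them passed at 2, 4 and 6 h (6, 6 and 5 had an unadjusted p under 0.05), and 0 rose later. Over all genes tested no more than 0.0128%, 0.0769% and 4.71% passed at 2, 4 and 6 h. At 12 h 2 of the list fell and at 200 nM 4 fell, beside 25.2% and 35.3% of all genes. Under median-of-ratios scaling, with 27 tested, 5 rose and 0 fell at 12 h and 4 rose and 1 fell at 200 nM. Their median change was 0.36 at 2 h, 0.41 at 4 h and 0.48 at 6 h, beside 0.0031, -0.063 and -0.15 over all genes. IL8, a chemokine gene with an AP-1 site, had 10.4 and 7.06 FPKM at 12 h, against 73.0 and 45.5 FPKM at 2 h, and fell by 2.62 ± 0.47 (adjusted p = 0.00905). PLAUR, the urokinase receptor gene, fell by 1.25 ± 0.21 in that comparison (adjusted p = 0.00715), but by 0.68 under median-of-ratios scaling, where it did not pass (adjusted p = 0.0852). HMOX1, haem oxygenase, fell by 2.20 ± 0.26 at 200 nM against DMSO (adjusted p = 0.000889). EZR, which encodes ezrin, had 31.6 and 32.4 FPKM at 200 nM, against 176.5 and 118 FPKM at 50 nM, and fell by 2.14 ± 0.28 (adjusted p = 0.00217).

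Proteins that bind AU-rich elements or degrade mRNA act on FOS, JUN and other short-lived messages. All 13 of the list were tested, and 0 passed in limma at 2, 4 and 6 h (2, 2 and 5 had an unadjusted p under 0.05). Of all genes tested 0.0128%, 0.0769% and 4.71% passed at those times. At 12 h 1 rose and 5 fell, beside 3.27% and 25.2% of all genes. At 200 nM 8 fell against DMSO (35.3% of all genes), and between the doses 1 rose and 6 fell (2.94% and 21.9%). ZFP36, tristetraprolin, which triggers decay of such mRNAs, had 12.8 and 34.0 FPKM at 200 nM, against 5.50 and 9.11 FPKM at 50 nM, and rose by 1.44 ± 0.39 (adjusted p = 0.0327). ELAVL1, which stabilises them, fell by 1.10 ± 0.23 between the doses (adjusted p = 0.0117) and by 1.42 ± 0.23 at 200 nM against DMSO (adjusted p = 0.00265). CNOT7, a deadenylase, had 25.4 and 20.5 FPKM at 12 h, against 69.3 and 43.9 FPKM in DMSO, and fell by 1.24 ± 0.26 (adjusted p = 0.0107). KHSRP, a decay-promoting protein, rose by 0.83 ± 0.25 at 12 h (adjusted p = 0.0432). Between the doses, as deposited, KHSRP fell by 1.10 ± 0.25 (adjusted p = 0.0176). ZFP36L1 fell there too, by 1.28 ± 0.30 (adjusted p = 0.0194). The list's median change was -0.55 at 12 h and -1.05 at 200 nM, beside -0.42 and -0.65 over all genes. Under median-of-ratios scaling 3 rose and 0 fell at 12 h, 0 rose and 0 fell at 200 nM against DMSO, and 2 rose and 1 fell between the doses. With that scaling ZFP36 between the doses and KHSRP at 12 h rose too (adjusted p = 0.012 and 0.00575). ELAVL1 between the doses, ELAVL1 at 200 nM against DMSO and CNOT7 at 12 h did not pass (adjusted p = 0.178, 0.0847 and 0.127).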

How the data were processed

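Polyadenylated RNA from 12 libraries, extracted with an RNeasy kit and prepared with TruSeq, went through an Illumina HiSeq, as the labels' protocols state. The authors deposited a gene table in FPKM for each library, in the Cufflinks layout per the file headers. Per the submitters' processing notes, STAR and Cufflinks were used with hg19; their versions, their settings, strand handling and gene models are not given here. Fragment totals are likewise not given, so depth was read from the authors' 95% bounds and relative to the TE7 DMSO library.

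Each table had 57869 lines for 57755 identifiers, and the 108 identifiers at several loci were summed. A table of the whole series was not used. Changes are on the log2(FPKM + 1) scale, which understates those of low genes. Fitting used the 15610 genes that reached 1 FPKM in 2 or more libraries, with limma 3.58.1 in R 4.3.3, with a term per condition, the cell line as replicate block and moderated variances that follow the mean. P-values are two-sided and Benjamini-Hochberg adjusted across every gene fitted, with 0.05 as the threshold, on 5 residual degrees of freedom plus 2.86 from the prior. Same-numbered libraries come from the same line, so the pairing holds by design. With 1 library per line, each p-value reflects no more than the scatter among these 12 libraries.

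The members, gene lists, comparisons and tests were chosen with earlier results of these data known. All 8 members were named; from each list up to 6 genes past the threshold per comparison were eligible, ranked by the smaller change of the 2 lines. A simulation for 12 h against DMSO over 15610 genes changed 200 of them and left the others unchanged between these groups. Of 50 genes each at log2 changes of 1, 2, 3 and 4, 18%, 70%, 82% and 98% were recovered, with 10 false calls. In the data themselves 28.4% of all genes passed at 12 h, so recovery there can differ from these rates. Alternatives were another pseudocount (0.1 or 5), another filter, 3 scalings, no variance trend, no block, the highest locus, and leaving out libraries.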

Additional observations from a re-analysis of the deposited data

How the results depend on the processing

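Of 1272 recomputed member changes, 1119 kept their direction and side of the threshold, 94 lost the call, 27 gained one and 32 changed sign. With no cell-line block, 0 members passed at 2, 4 and 6 h, where 0% of all genes tested did. At 12 h 1 member passed (10.6% of all genes) and at 200 nM against DMSO 2 did (17.9%). Between 12 h and 2 h 2 members passed (5.04%), and between the doses 1 did (8.61%). The paired fit with the block gave 1, 1, 1, 3, 4, 5 and 5 in the same order. In it 0.0128%, 0.0769%, 4.71%, 28.4%, 38.5%, 21.9% and 24.8% of all genes passed. Without the KYSE510 DMSO library and both 200 nM libraries 4, 2, 2 and 5 members passed at 2, 4, 6 and 12 h, where 1.86%, 10.8%, 24.9% and 53.1% of all genes tested did; this setting gave no value for 200 nM. Between the doses 3 passed with a pseudocount of 5 and 3 with no filter, where 21.3% and 8.55% of all genes tested did. Leaving out 1 library at a time also changed these counts, and a compared group that lost a library had 1 left. The cause of these differences was not tested.

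Sign changes befell values that had not passed. Without the 3 libraries, JUN turned to 0.038 at 4 h and 0.33 at 12 h, and FOSB to -0.52 at 6 h. Under median-of-ratios scaling JUNB turned to 0.026 at 6 h. At 12 h FOSB was 0.27 and 0.19 and FOSL1 0.28 and 0.19 under median-of-ratios and upper-quartile scaling. At 200 nM against DMSO FOSL1 was 0.041, 0.52 and 0.52 and JUN 0.19, 0.65 and 0.65 under equal sums, median-of-ratios and upper-quartile scaling. FOS between 12 h and 2 h was -0.11 under equal sums, and ATF3 between the doses was 0.059 and 0.13 under median-of-ratios and upper-quartile scaling. Leaving out 1 library at a time, JUN ranged from -0.25 to 1.50 at 2 h, from -1.51 to 0.24 at 12 h and from -1.03 to 0.72 at 200 nM. JUNB ranged from -0.89 to 0.050 at 4 h and from -0.38 to 0.027 at 6 h. FOSB ranged from -0.42 to 0.73 at 6 h and from -0.82 to 0.32 at 12 h. FOSL1 ranged from -0.61 to 0.020 at 12 h and from -0.63 to 0.0013 at 200 nM, ATF3 from -0.40 to 1.09 at 12 h and from -0.25 to 0.57 at 200 nM, and FOS from -0.44 to 0.70 between 12 h and 2 h. Depth limits the lowest values most: FOSB at 0.945 FPKM and ATF3 at 1.16 FPKM have the widest intervals.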
